A study of Homo sapiens with 6 samples.

Results

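The alkaline phosphatase family was followed through the gene table by symbol, and all 4 human genes of the family, ALPP, ALPPL2, ALPI and ALPL, were found among its 58302 rows. The libraries came from MHCC97H, a human hepatocellular carcinoma cell line, in 2 groups of 3: cells carrying a non-target CRISPR/Cas9 control (control 1, 2 and 3) and cells with a CRISPR/Cas9 knockout of DDX17, a DEAD-box RNA helicase (DDX17_KO 1, 2 and 3). Both groups share the cell line and its culture in DMEM with fetal bovine serum. Whether the knockout line was 1 clone or a pool, and whether the 3 libraries of a group came from separate cultures, is not stated in the labels, so the spread between them may be technical. The members were chosen by gene symbol, and the family was selected on its measured levels in this same comparison, since ALPI in DDX17_KO 2 differed from ALPI in DDX17_KO 1 and 3. The levels of its members are therefore given as a description, with no test.

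Alkaline phosphatases are zinc-dependent enzymes held on the outer face of the plasma membrane by a glycosylphosphatidylinositol (GPI) anchor, where they take phosphate groups off many substrates. ALPL, the tissue-nonspecific form, is the enzyme of liver, bone and kidney and cleaves pyrophosphate and pyridoxal phosphate. ALPP, ALPPL2 (approved symbol ALPG) and ALPI are tissue-restricted copies named for placenta, for placenta and germ cells, and for the intestinal brush border. Placental-type enzyme is also known as a product of tumours outside those tissues.

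The 3 restricted genes stand in a row on the plus strand of chromosome 2 and are alike in sequence, which bears on how far their RNA can be told apart. In hg38, ALPP (ENSG00000163283) spans 232378534 to 232382889, ALPPL2 (ENSG00000163286) 232406843 to 232410714 and ALPI (ENSG00000163295) 232456123 to 232460032. ALPL (ENSG00000162551) lies on chromosome 1, from 21509372 to 21578412. In GENCODE release 29 the coding transcripts of ALPP, ALPPL2 and ALPI have 11 exons each and that of ALPL has 12. The coding sequences of ALPP and ALPPL2 were identical at 97.3% of aligned positions, those of ALPP and ALPI at 88.5%, and those of ALPPL2 and ALPI at 88.8%. ALPP and ALPL were identical at 62.4%.

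The 90 coding bases in which the cluster genes differed most are shown because they separate ALPI from its neighbours. They lie in exon 10 of each gene, at chr2:232381265-232381354 in ALPP, chr2:232409346-232409435 in ALPPL2 and chr2:232458646-232458735 in ALPI, on the plus strand of hg38. Capitals mark the 26 positions at which the 3 genes are not all alike.
ALPP: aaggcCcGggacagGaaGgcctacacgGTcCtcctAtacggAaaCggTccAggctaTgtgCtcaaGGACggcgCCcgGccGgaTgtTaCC
ALPPL2: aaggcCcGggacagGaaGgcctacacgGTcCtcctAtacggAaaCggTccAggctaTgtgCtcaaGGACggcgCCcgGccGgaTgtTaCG
ALPI: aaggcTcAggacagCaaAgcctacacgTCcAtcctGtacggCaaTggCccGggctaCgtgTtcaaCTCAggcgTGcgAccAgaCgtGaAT
ALPI differed from ALPP at 26 of these 90 bases, whereas ALPPL2 differed from ALPP at 1. The longest run shared by all 3 genes was 60 bases, in exon 9 (chr2:232458277-232458336 in ALPI). It is shown because a read wholly within it cannot be placed by its own sequence alone.
shared run: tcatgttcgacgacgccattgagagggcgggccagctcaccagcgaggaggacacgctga
Of all 50-base windows of the ALPI coding sequence, 2.48% also occurred in transcripts of ALPP or ALPPL2, and of its 100-base windows 0%. Of the 100-base windows of ALPPL2, 25.3% also occurred in ALPP, and of its 50-base windows 45.5%. Read length and the handling of reads that fit several places are unknown here, so the division of fragments between ALPP and ALPPL2 is uncertain, while few windows of ALPI are shared.

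ALPI RNA, the intestinal form, was high in every control library, nearly gone from DDX17_KO 1 and 3 and highest of all in DDX17_KO 2. It stood at 51.5, 71.0 and 59.6 FPKM in control 1, 2 and 3, where FPKM is the number of fragments scaled for transcript length and library depth, a level that can be compared between genes. In DDX17_KO 1, 2 and 3 it stood at 1.84, 167 and 2.76 FPKM. DDX17_KO 1 and 3 thus lay below every control and DDX17_KO 2 above every control, so the groups overlapped. The knockout mean of 57.3 ± 95.3 FPKM (SD, n = 3) was close to the control mean of 60.7 ± 9.79 FPKM (SD, n = 3) and describes none of the 3 knockout libraries. The control mean was 26.4 times the mean of DDX17_KO 1 and 3, and DDX17_KO 2 was 2.76 times the control mean.

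The log2 fold change of ALPI, taken as the difference of group means of log2(FPKM + 1), was -2.33 with all libraries and -4.23 without DDX17_KO 2. It was -1.28 without DDX17_KO 1. At the estimated depths these levels correspond to about 52, 2357 and 60 fragments in DDX17_KO 1, 2 and 3 and to 1672 to 2599 in the controls, over the summed exon length. Counting error is therefore small beside the differences between the libraries.

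On the log2(FPKM + 1) scale, ALPI in DDX17_KO 2 lay 5.69 above the mean of DDX17_KO 1 and 3. Over all 15620 genes tested, those with a mean of at least 0.5 FPKM, the median of that distance was 0.08. ALPI ranked 3 by its size among all of them and 1 among protein-coding genes. A distance of at least 2 upwards was found in 57 genes, 0.365% of those tested. In 1222 genes, 7.82%, DDX17_KO 1 and 3 lay below every control while DDX17_KO 2 lay above every control, as in ALPI. These ranks describe the value for which the family was chosen.

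ALPP, the placental form, was the most abundant member in every library and differed little between the groups. It stood at 206, 280 and 221 FPKM in control 1, 2 and 3, with a mean of 235.6 ± 39.0 FPKM (SD, n = 3). DDX17_KO 1, 2 and 3 held 138, 261 and 211 FPKM, with a mean of 204 ± 61.8 FPKM (SD, n = 3). DDX17_KO 1 was the lowest library and control 2 the highest, and the groups overlapped. The log2 fold change was -0.24 on the log2(FPKM + 1) scale and -0.45 without DDX17_KO 2. By level, ALPP ranked between 95 and 160 among the tested genes of each library. An antisense gene, AC068134.1, lies inside ALPP, and its reads cannot be told from those of ALPP, since no source used here states whether strand was used; it was listed at 0.55 FPKM or less.

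ALPPL2, the germ cell form, was expressed at a low level. Control 1, 2 and 3 held 5.24, 6.03 and 5.46 FPKM, and DDX17_KO 1, 2 and 3 held 4.23, 7.50 and 7.13 FPKM. DDX17_KO 1 lay below and DDX17_KO 2 and 3 above all controls, so the groups overlapped. After the correction for GC content and transcript length described below, they did not overlap. On the log2(FPKM + 1) scale the corrected values were 2.61, 2.42 and 2.58 in control 1, 2 and 3 and 2.70, 2.97 and 3.36 in DDX17_KO 1, 2 and 3. How many of all tested genes did the same was not counted. The control mean was 5.57 ± 0.41 FPKM and the knockout mean 6.29 ± 1.79 FPKM (SD, n = 3 each), a log2 fold change of 0.12 that turned to -0.01 without DDX17_KO 2. With 1 annotated transcript, ALPPL2 converts to whole fragments: 161, 209 and 198 in the controls and 112, 100 and 146 in DDX17_KO 1, 2 and 3. Its sequence likeness to the far more abundant ALPP limits how firmly these fragments belong to it.

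ALPL, the form that liver normally makes, was listed at 0 in 5 of the 6 libraries. DDX17_KO 1 held 0.030 FPKM, about 1 fragment. A count of 3 fragments over the summed exons of ALPL would give 0.069 FPKM in the deepest library and 0.19 FPKM in the shallowest, a floor that covers counting error only. Any ALPL RNA below that was not detectable at this depth, and no fold change is given.

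**Figure D1:**
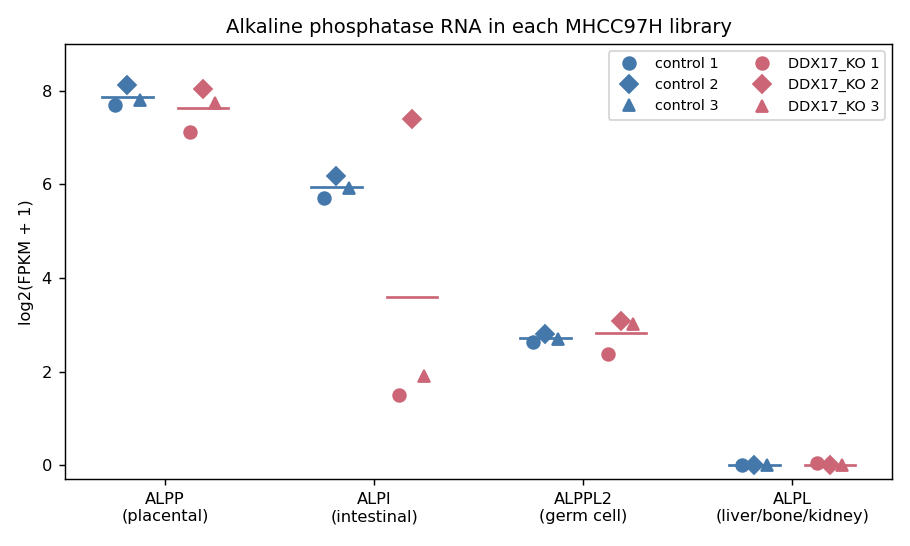
Level of each alkaline phosphatase gene as log2(FPKM + 1) in the 6 libraries; circles, diamonds and triangles are replicates 1, 2 and 3, blue is control, red is DDX17_KO, and bars are group means of the log2 values. ALPP and ALPPL2 overlap between the groups, ALPL is at or near 0, and ALPI splits DDX17_KO into 1 library above and 2 libraries below the controls.

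Of the 4 members, 3 passed the filter on low values, and on the uncorrected FPKM none of these 3 had groups that did not overlap. Over all tested genes that share was 20.7%, with 12.6% lower and 8.09% higher in DDX17_KO. The order of levels was ALPP, ALPI, ALPPL2, ALPL in the controls and in DDX17_KO 2. In DDX17_KO 1 and 3, ALPI stood below ALPPL2, at 0.44 and 0.39 times its level. The neighbours ALPP and ALPI in that order were set apart by more than the spread of their libraries in the controls, where ALPI was 25.0%, 25.4% and 26.9% of ALPP.

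The make-up of the family RNA differed more between the knockout libraries than its sum did. ALPP made up 78.4%, 78.4% and 77.3% of the summed FPKM of the family in control 1, 2 and 3, and ALPI 19.6%, 19.9% and 20.8%. In DDX17_KO 1 and 3, ALPP made up 95.8% and 95.5% and ALPI 1.28% and 1.25%. In DDX17_KO 2, ALPP made up 59.9% and ALPI 38.4%. The sums were 262, 357 and 286 FPKM in the controls and 144, 436 and 221 FPKM in DDX17_KO 1, 2 and 3. In these bulk libraries, fewer cells with ALPI RNA and less ALPI RNA in each cell cannot be told apart.

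**Figure D2:**
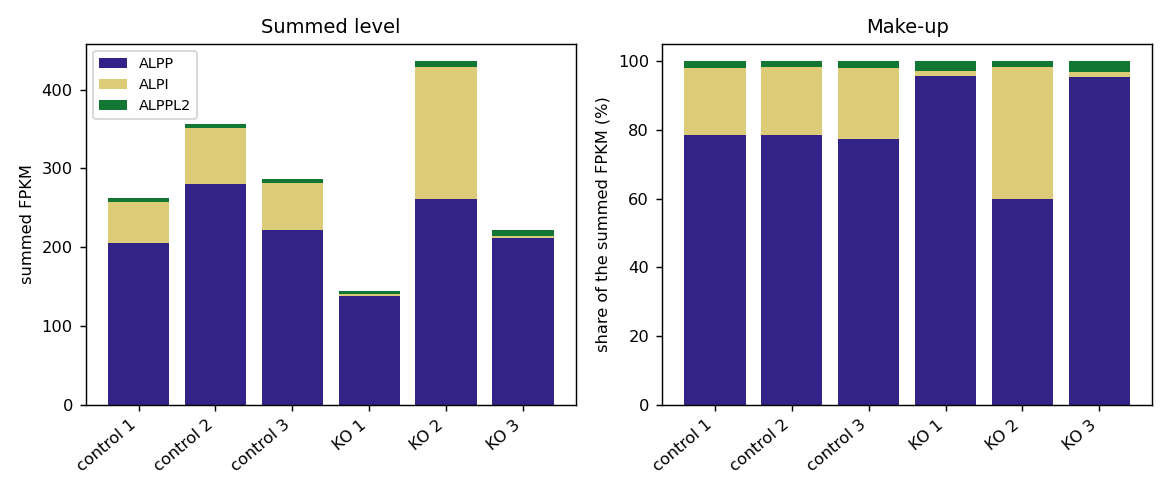
Summed FPKM of ALPP, ALPI and ALPPL2 in each library on the left, and the percentage of that sum from each gene on the right. The ALPI part is about 20% in the controls, 38.4% in DDX17_KO 2 and under 1.3% in DDX17_KO 1 and 3.

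DDX17_KO 2 was unlike the other knockout libraries in many genes besides ALPI. Part of this was shared with control 2: across genes, the deviations of these libraries from their group means correlated at 0.546. The estimated depth was 12340000 to 14550000 fragments in the controls and 10620000, 5350000 and 8210000 in DDX17_KO 1, 2 and 3. DDX17 itself, the targeted gene (chromosome 22, 38483440 to 38507660), was lowest in DDX17_KO 2, at 7.64 FPKM, against 22.4 and 19.1 FPKM in DDX17_KO 1 and 3 and 41.4 to 45.7 FPKM in the controls. Over all tested genes its log2 fold change was -1.48 (SE 0.36, limma adjusted p = 0.282), and -1.04 (limma adjusted p = 0.0334) once DDX17_KO 2 was left out. Protein was not measured. With all libraries 6 of the tested genes passed a limma adjusted p of 0.05, 0.0384%, against 0.0256% in the fit blocked by replicate number. Without DDX17_KO 2, 572 genes passed, 3.66%, of which 1.95% were higher and 1.72% lower in DDX17_KO.

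GC-rich transcripts were on the whole higher in DDX17_KO 2, and the cluster genes are GC-rich. The longest transcripts of ALPP, ALPPL2 and ALPI have a GC content of 61.6%, 62.5% and 62.2%. Among the 1230 tested genes within 2 percentage points of ALPI, the median distance of DDX17_KO 2 from the mean of DDX17_KO 1 and 3 was 0.43 on the log2(FPKM + 1) scale, with 5% to 95% of genes between -0.30 and 1.15. The distance was 0.61 in ALPP and 0.38 in ALPPL2, inside that range, and 5.69 in ALPI, outside it. After a correction of all libraries for GC content and transcript length the distance was 0.21 in ALPP, -0.06 in ALPPL2 and 5.25 in ALPI. The correction took ALPI on that scale from 6.17 to 5.77 in control 2 and from 7.40 to 7.28 in DDX17_KO 2. The ALPI distance, 5.69 without and 5.25 with the correction, is the value for which the family was chosen. Its causes were not tested.

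**Figure D3:**
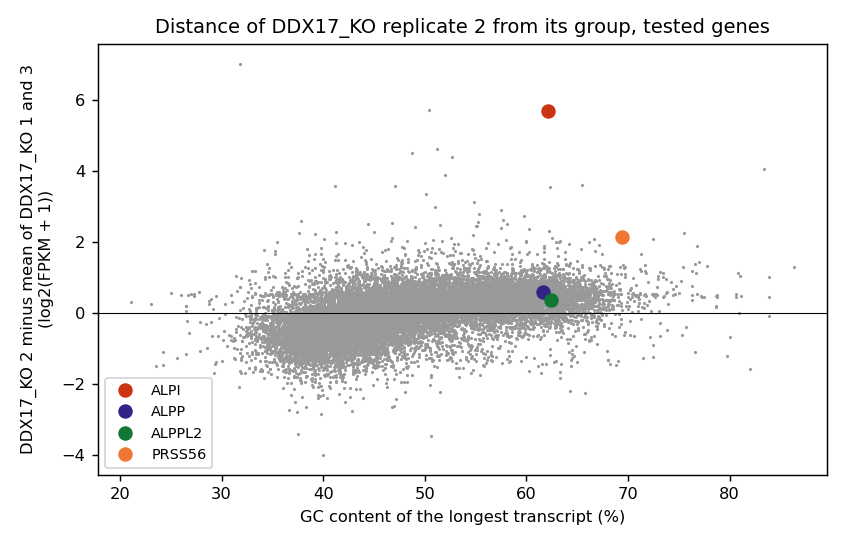
Distance of DDX17_KO 2 from the mean of DDX17_KO 1 and 3, on the log2(FPKM + 1) scale, against the GC content of the longest transcript, with a grey point for each tested gene that has a GC content. ALPP and ALPPL2 sit within the cloud at 0.61 and 0.38, PRSS56 at 2.14, and ALPI at 5.69.

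The sequence upstream of the cluster genes is shown for ALPI and ALPPL2, the pair at the extremes of this comparison, with the letters they share. The 250 bases before the start come from RefSeq (GRCh38.p14, plus strand), at chr2:232455903-232456152 for ALPI and chr2:232406594-232406843 for ALPPL2. Capitals mark 3 motifs on either strand, TTTAAA and then AGGTCA and then CACACCC, whose matches do not overlap here. The last 30 bases shown for ALPI and the last base shown for ALPPL2 lie inside the GENCODE transcript, which starts earlier than the RefSeq start. These motifs were picked after the sequences had been read. The search also covered GGGCGG and TGACTCA, which are not marked. GGGCGG occurred in both windows and in 42.6% of all windows searched, and TGACTCA in neither.
ALPI: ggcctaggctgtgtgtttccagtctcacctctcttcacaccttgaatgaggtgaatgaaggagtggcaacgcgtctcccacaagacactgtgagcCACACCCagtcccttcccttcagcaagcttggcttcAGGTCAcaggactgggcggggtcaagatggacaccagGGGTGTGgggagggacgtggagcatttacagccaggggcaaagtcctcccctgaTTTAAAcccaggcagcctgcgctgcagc
ALPPL2: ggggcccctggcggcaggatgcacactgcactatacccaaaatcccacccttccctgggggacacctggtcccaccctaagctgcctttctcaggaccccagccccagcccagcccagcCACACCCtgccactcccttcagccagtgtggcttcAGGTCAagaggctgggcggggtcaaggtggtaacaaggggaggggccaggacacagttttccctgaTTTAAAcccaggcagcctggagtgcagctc
The first motif, which resembles a TATA box, began at position -28 from the RefSeq start in ALPI, within those 30 bases, and at -30 in ALPPL2 and ALPP. AGGTCA, the half-site of many nuclear receptors, began at -119 in ALPI and at -96 in the others. CACACCC, a letter run of the kind bound by Kruppel-like factors, began at -155 in ALPI and at -131 in the others, and ALPI held a further copy on the minus strand from -82. Of 35116 windows of the same length in the RefSeq table, 11.3% held TTTAAA, 12.1% AGGTCA and 6.63% CACACCC. The upstream windows of ALPP and ALPPL2 were identical at 84.4% of aligned positions, and those of ALPP and ALPI at 56.6%. A match of letters is a description only, and no binding was measured in these libraries.

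Around the cluster, the gene next to ALPI on its right that passed the filter, PRSS56, was also lower in DDX17_KO 1 and 3. PRSS56, which encodes a trypsin-like serine protease known for its part in eye growth, begins 60431 bases past the end of ALPI. It stood at 96.8, 148 and 114 FPKM in control 1, 2 and 3 and at 13.6, 55.4 and 10.2 FPKM in DDX17_KO 1, 2 and 3. All knockout libraries lay below all controls, with DDX17_KO 2 nearest to them, unlike ALPI, where DDX17_KO 2 lay above the controls. The log2 fold change of PRSS56 was -2.50 (SE 0.56, limma adjusted p = 0.264) and did not pass. Without DDX17_KO 2 it was -3.22 and passed (limma adjusted p = 0.00582).

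CHRND, the next tested gene and the delta subunit of the muscle acetylcholine receptor, held 1.67, 1.96 and 1.00 FPKM in control 1, 2 and 3 and 0.23, 0.70 and 0.32 FPKM in DDX17_KO 1, 2 and 3. Its groups did not overlap, its log2 fold change was -0.84, and its limma adjusted p was 0.295. On the left, DIS3L2, an RNA exonuclease gene, averaged 2.58 ± 0.06 FPKM across control and 2.25 ± 0.29 FPKM across DDX17_KO libraries (SD, n = 3 each), and limma gave an adjusted p of 0.654. The pseudogene AC068134.3, which overlaps DIS3L2, had 1.46 ± 1.22 and 2.56 ± 1.34 FPKM (SD, n = 3 each), and limma gave an adjusted p of 0.514.

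Within 500 kb of the cluster, 31 other genes were listed and 12 were tested. By limma, 0 passed over all genes in either direction, 3 were lower and 0 higher at an unadjusted p under 0.05, and the groups did not overlap in 5, of which 4 were lower and 1 higher in DDX17_KO. The unadjusted share over all tested genes was 13.5%, with 6.31% higher and 7.19% lower, and groups did not overlap in 20.7% of them. The median log2 fold change of the 12 neighbours was 0.06, against -0.03 over all tested genes. The third gene lower at the unadjusted p was NGEF, a guanine nucleotide exchange factor gene named after its values were seen, averaging 3.74 ± 0.91 FPKM across control and 1.49 ± 0.62 FPKM across DDX17_KO libraries (SD, n = 3 each); there DDX17_KO 2 was the lowest library, at 0.80 FPKM.

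**Figure D4:**
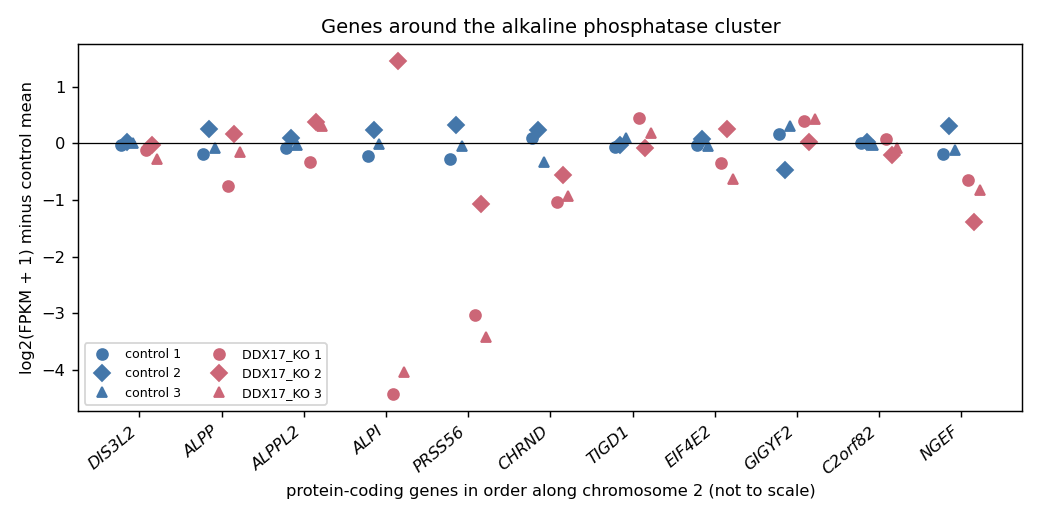
Difference of each library from the control mean, on the log2(FPKM + 1) scale, for ALPP, ALPPL2, ALPI and the tested protein-coding genes within 500 kb, in their order along chromosome 2; blue is control, red is DDX17_KO, and the symbols are replicates. DDX17_KO 1 and 3 lie far below the controls in ALPI and PRSS56 and less far below in CHRND and NGEF, and DDX17_KO 2 lies above the controls in ALPI.

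Around ALPL, itself listed at or near 0, 12 of 33 other genes within 500 kb were tested and 0 passed by limma. At an unadjusted p under 0.05, 1 was higher and 3 lower, against 6.31% and 7.19% of all tested genes. RAP1GAP, a GTPase-activating protein gene and the nearest tested gene, averaged 2.90 ± 0.56 FPKM across control and 1.38 ± 0.42 FPKM across DDX17_KO libraries (SD, n = 3 each), and limma gave an adjusted p of 0.318. USP48, a deubiquitinase gene, had 3.75 ± 0.91 and 7.71 ± 3.22 FPKM, with 0.369 by limma. NBPF3 and the pseudogene HS6ST1P1, on the other side, had limma adjusted p of 0.643 and 0.247. The genes named here were taken from those that passed the filter on low values, so their expression was a condition of being named. Of the 33 genes, 16 were listed at 0 in every library, so ALPL was not alone there in being at or near 0.

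The genes whose pattern over the 6 libraries was most like that of each member were named by Pearson correlation of log2(FPKM + 1), among 3079 approved protein-coding genes with a range of at least 1 log2 unit. The libraries share depth and base composition effects, so the values are descriptions. For ALPI they were ZNF831, a zinc finger gene (r = 0.997), RPS2, a small ribosomal subunit protein gene (0.992), ZNF76 (0.992), C8orf33 (0.988) and SNRNP25, a minor spliceosome protein gene (0.987). ZNF831 stood at 2.12, 2.27 and 2.25 FPKM in control 1, 2 and 3 and at 0.018, 3.39 and 0.018 FPKM in DDX17_KO 1, 2 and 3, the same order of groups as in ALPI and at a far lower level. In RPS2 the range was 47.3 to 120 FPKM, much narrower than in ALPI.

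A correlation of at least 0.95 was found with 90 genes for ALPI, 35 for ALPP and 1 for ALPPL2, over 6 libraries each. ALPPL2 itself ran only from 2.39 to 3.09 on the log2(FPKM + 1) scale, less than the range of 1 asked of the candidates. Genes that vary as little as ALPPL2 were left out, so its count cannot be set against the others. The genes most like ALPP were CCDC137 (r = 0.986), JTB (0.983), ALDH3B1 (0.981), TFIP11 (0.977) and TSR3 (0.977). Those most like ALPPL2 were TIMP3, an inhibitor of matrix metalloproteinases (0.953), CCND3, a D-type cyclin (0.928), ALKBH2 (0.911), MAIP1 (0.910) and IGFN1 (0.901). Among the members themselves, r was 0.781 between ALPP and ALPI, 0.754 between ALPP and ALPPL2 and 0.379 between ALPPL2 and ALPI.

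**Figure D5:**
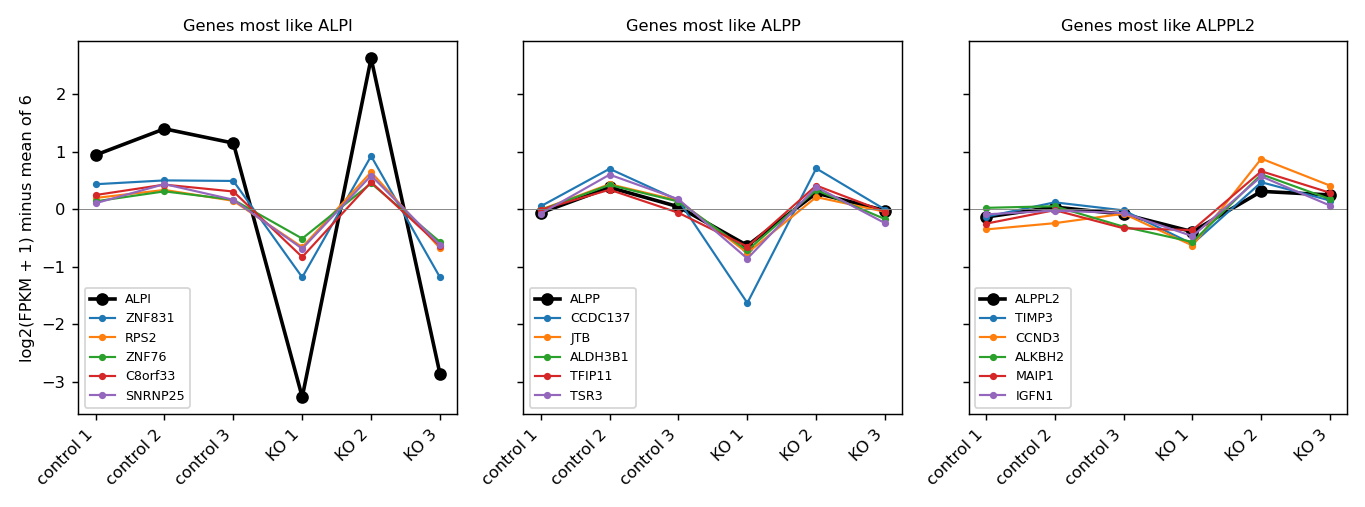
Level in each library as log2(FPKM + 1) minus the mean of the 6, for ALPI, ALPP and ALPPL2 (black) and the 5 genes most like each (colours). ALPI has by far the widest range of its panel, with DDX17_KO 1 and 3 lowest and DDX17_KO 2 highest.

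Markers of the intestinal lining were near 0, while some of those of placenta or germ cells were expressed. Of 20 enterocyte markers, 0 passed the filter on low values, 10 were listed at 0 in every library, among them SI and FABP2, and the list summed to 0.29 to 0.40 FPKM in the controls and 0.12 to 0.19 FPKM in DDX17_KO. ALPI RNA was thus present at up to 167 FPKM with the defining enterocyte markers at or near 0. Of 20 trophoblast and germ cell markers, 7 were tested, and 6 were listed at 0 in every library. TFAP2A and PRDM1, transcription factor genes, were the most abundant, at 11.8 ± 0.71 and 4.09 ± 0.66 FPKM in controls (SD, n = 3 each). Their list summed to 25.1 to 26.8 FPKM in controls and 25.7 to 28.1 FPKM in DDX17_KO. CGA, the shared alpha chain of chorionic gonadotropin, was named after its values were seen. It stood at 0.13, 1.74 and 0.86 FPKM in DDX17_KO 1, 2 and 3 and at 0.32 FPKM or less in the controls. Of 10 osteoblast markers, COL1A1, a collagen gene also made by other cells, was the only tested gene. It held 12.4, 15.7 and 12.7 FPKM in control 1, 2 and 3 and 7.04, 11.5 and 6.11 FPKM in DDX17_KO 1, 2 and 3, with no overlap. Its log2 fold change was -0.70 (limma adjusted p = 0.365), and without DDX17_KO 2 it passed (limma adjusted p = 0.0449).

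Markers of liver cells were also low, in a line that comes from a liver tumour. Of 17 hepatocyte and hepatoma markers, KRT18 and KRT8 alone passed the filter, at 207 ± 22.9 and 103 ± 7.89 FPKM in controls (SD, n = 3 each). ALB, the albumin gene, was barely seen in control 1, 2 and 3, at 0.35, 0.21 and 0.37 FPKM, and stood at 0 in every DDX17_KO library, and AFP reached 0.067 FPKM at most. The red cell and blood markers summed to 54.0 to 69.6 FPKM in the controls and to 0.67 FPKM or less in DDX17_KO, and of the 3 tested, HBB, HBA1 and HBA2, 3 were lower by limma over all genes. HBB held 29.4, 23.1 and 25.6 FPKM in control 1, 2 and 3 and was listed at 0 in every DDX17_KO library (limma adjusted p = 8.15e-05). HBA1 held 22.9, 17.0 and 19.8 FPKM in the same controls and 0, 0.65 and 0.071 FPKM in DDX17_KO 1, 2 and 3 (limma adjusted p = 0.00121), and did not pass with a pseudocount of 0.1 or 0.01 (limma adjusted p = 0.0554 and 0.239). Their part in the ALPI levels was not tested; control 1 to 3 held both, and DDX17_KO 2 held the most ALPI and nearly none of them.

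Genes that handle the substrates of alkaline phosphatase did not pass by limma with all libraries, which does not show that they were level. DDX17, the targeted gene, did not pass in that fit either. Of 20 pyrophosphate and phosphate genes, 10 were tested and 0 passed by limma in either direction. An unadjusted p under 0.05 was found in 0 of them, against 13.5% of all tested genes. PPA1, the cytosolic pyrophosphatase, averaged 39.8 ± 2.81 FPKM across control and 36.7 ± 2.77 FPKM across DDX17_KO libraries, and SLC20A1, a phosphate importer, 31.0 ± 0.58 and 29.4 ± 5.11 FPKM (SD, n = 3 each). Of 5 vitamin B6 genes, all tested, 0 passed and 1 was lower at an unadjusted p under 0.05. That gene was PDXK, pyridoxal kinase, at 31.4, 39.4 and 31.9 FPKM in the controls and 15.2, 24.9 and 16.9 FPKM in DDX17_KO 1, 2 and 3. Its groups did not overlap, its log2 fold change was -0.84 with a limma adjusted p of 0.314, and without DDX17_KO 2 that p was 0.0361. PDXP, pyridoxal phosphatase, ranged widely, with an SD of 10.7 FPKM around a control mean of 7.68 FPKM. Of 6 acid phosphatases, 3 were tested and 0 passed, with 0 at an unadjusted p under 0.05; ACP1 had 8.44 ± 1.09 and 7.67 ± 1.5 FPKM and ACP2 4.21 ± 0.91 and 2.86 ± 0.74 FPKM (SD, n = 3 each).

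The machinery that makes and attaches the GPI anchor, which all 4 enzymes carry, was expressed in both groups. Of 31 genes, 28 were tested and 0 passed by limma, against 0.0384% of all tested genes. At an unadjusted p under 0.05, 0 were higher and 4 lower, against 6.31% and 7.19% of all tested genes. The 28 had a median log2 fold change of -0.09, and groups did not overlap in 5, against 20.7% of all tested genes. DPM1, which makes dolichol phosphate mannose, averaged 16.3 ± 2.79 FPKM across control and 17.0 ± 0.08 FPKM across DDX17_KO libraries, and its partner DPM3 22.7 ± 3.98 and 16.8 ± 3.8 FPKM (SD, n = 3 each). Without DDX17_KO 2, 1 gene was lower over all genes, against 1.72% of all tested genes. It was PIGX, a subunit of the first mannosyltransferase, named after its values were seen. PIGX held 3.15, 3.27 and 3.14 FPKM in control 1, 2 and 3 and between 1.30 and 1.5 FPKM in DDX17_KO, and its limma adjusted p was 0.181 with all libraries and 0.0449 without DDX17_KO 2. Of 29 other GPI-anchored surface proteins, 22 were tested and 0 passed, with a median log2 fold change of -0.29. At an unadjusted p under 0.05, 0 were higher and 6 lower, against 6.31% and 7.19% of all tested genes. BST2 and CD55, the most abundant, averaged 221 ± 32.0 and 81.1 ± 12 FPKM across control and 186 ± 29.1 and 88.0 ± 22.9 FPKM across DDX17_KO libraries (SD, n = 3 each).

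Genes of zinc transport and storage did not pass either. Of 31 zinc transporters and metallothioneins, 19 were tested and 0 passed by limma. At an unadjusted p under 0.05, 2 were lower and 0 higher, against 7.19% and 6.31% of all tested genes. SLC30A1 and SLC39A6, the most abundant, averaged 38.5 ± 6.43 and 34.8 ± 10.8 FPKM across control and 38.7 ± 8.42 and 47.1 ± 12.7 FPKM across DDX17_KO libraries (SD, n = 3 each). Without DDX17_KO 2, the metallothionein genes MT1E and MT2A, named after their values were seen, were lower over all genes, with limma adjusted p of 0.0432 and 0.0395. Of all tested genes 1.72% were lower in that fit. MT2A followed the order seen in ALPI, at 36.2, 41.8 and 40.4 FPKM in the controls and 21.1, 50.5 and 15.2 FPKM in DDX17_KO 1, 2 and 3.

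Of 11 genes known as regulators of ALPI or of intestinal transcription, 7 were tested and 0 passed by limma. At an unadjusted p under 0.05, 2 were higher and 0 lower, against 6.31% and 7.19% of all tested genes. KLF5 and SP1, the most abundant, averaged 27.7 ± 3.84 and 24.1 ± 5.40 FPKM across control and 29.2 ± 11.3 and 21.1 ± 4.09 FPKM across DDX17_KO libraries (SD, n = 3 each). KLF4, a Kruppel-like factor gene known to activate ALPI and named after its values were seen, held 2.63, 3.23 and 2.88 FPKM in control 1, 2 and 3 and 1.01, 2.93 and 1.06 FPKM in DDX17_KO 1, 2 and 3. DDX17_KO 2 lay within the controls and the other knockout libraries below them, and limma gave an adjusted p of 0.371 for all libraries and 0.0360 without DDX17_KO 2. Without DDX17_KO 2, KLF4 was the 1 gene of this list that was lower over all genes, and 1 other gene was higher. Over all tested genes 1.72% were lower and 1.95% higher in that fit. The list as a whole went the other way from KLF4. Over its 7 tested genes the median distance of DDX17_KO 2 from the mean of DDX17_KO 1 and 3 was -0.49. The list summed to 53.9 FPKM in DDX17_KO 2, its lowest library, against 83.2 and 80.2 FPKM in DDX17_KO 1 and 3. The part of KLF4 in the ALPI levels was not tested. CDX1 was listed at 0 in every library and CDX2 in 5 of 6. Of 11 canalicular and cholestasis genes, 4 were tested and 0 passed, with 1 higher at an unadjusted p under 0.05. That gene was ABCC2, a canalicular exporter, averaging 19.6 ± 4.93 FPKM across control and 34.4 ± 7.32 FPKM across DDX17_KO libraries, and ABCC3, a basolateral exporter, had 15.7 ± 1.48 and 11.6 ± 3.14 FPKM (SD, n = 3 each).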

How the data were processed

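Total RNA of 6 MHCC97H libraries was sequenced. FPKM is the unit of the table that the authors deposited, with a row for each gene. HISAT2, StringTie, edgeR, CASAVA 1.8 and hg38 are listed, per the submitters' processing notes, with no roles. The sources used here give no annotation release, strand setting or filter. Sample titles gave the groups and the replicate numbers. The members and lists were chosen with earlier results of these data known.

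The 15620 genes whose mean reached 0.5 FPKM were fitted together in limma 3.58.1 (R 4.3.3) as log2(FPKM + 1), two-sided, with the prior variance following intensity, and p-values were adjusted by Benjamini-Hochberg over all of them. Changes of low genes are understated on that scale. The fit was tested on simulated data. Named by rule were all members, DDX17 and 2 genes per list (past the threshold, otherwise of highest mean). The rule also named the 2 nearest tested genes on each side and the 5 most alike genes per member. All other genes were named with their values in view, also where this is not marked, as for ALB, AFP, SI, FABP2, CDX1 and CDX2.

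Depth was estimated from FPKM times transcript length in genes with 1 transcript, where 99.4% to 99.7% of values up to 20 fragments lay within 0.05 of a whole number. Of the rows, 58039 had an identifier in GENCODE release 29, which supplied gene types, exons, transcripts and GC content (99.6% of tested genes). Approved symbols came from a table of current gene names, and upstream sequences from RefSeq (GRCh38.p14). Coding sequences were aligned with Biopython 1.88. The ALPP window is not printed because 217 of its 250 bases lie inside the GENCODE transcript.

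The deviations of same-numbered libraries from their group means correlated at 0.300, 0.546 and 0.214 across genes for replicates 1, 2 and 3. Every value was above 0.1, the mark used for taking the numbers to pair the libraries, but this cannot show how libraries 1 and 3 pair. Control 1 correlated more with DDX17_KO 3, at 0.329, and control 3 correlated with DDX17_KO 1 at 0.190. Any pairing rests on the data, since no label says what a number marks. The reported fit has no block.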

Additional observations from a re-analysis of the deposited data

How the results depend on the processing

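The settings tried were a replicate block, a pseudocount of 0.1 or 0.01, quantile or median-of-ratios normalization, a filter at 2 FPKM or none, limma untrended or robust, a correction for GC content and length with and without the block, and leaving out each library or both numbered 2. The log2 fold change of ALPI was below 0 in all of them, from -4.23 without DDX17_KO 2 to -1.28 without DDX17_KO 1, and was -4.11 without both libraries numbered 2. ALPP ran from -0.45 to 0.10 and was above 0 with the correction, with or without the block, and, at 0.01, without DDX17_KO 1. ALPPL2 was 0.47 with the GC and length correction, also with the block, and with single libraries left out ran from -0.01 to 0.34.

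By limma 6 genes passed, 4 with the replicate block, 11 with the GC and length correction, 3 with no filter and 1376 without both libraries numbered 2. With each library left out the number ran from 3 to 572. Of the 134 listed genes tested 3 passed, the globins. The number was 2 with either other pseudocount, where HBA1 did not pass, was 23 without both libraries numbered 2 and ran from 3 to 15 with each library left out, the highest without DDX17_KO 2. Over all 15620 tested genes, 1376 passed without both libraries numbered 2 and 572, or 3.66%, without DDX17_KO 2. The replicate block changed no call among the listed genes. The causes were not tested. Depth limits ALPL and the low markers, which lie near or under 3 fragments.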
